A study of Homo sapiens with 20 samples.

Results

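SESN1, SESN2, SESN3, DDIT4, TSC1, TSC2, DEPTOR and AKT1S1 encode proteins that restrain mTORC1, the kinase complex that couples nutrients, energy and growth factors to protein synthesis and cell growth. The rows carrying these 8 names were taken from each of the 20 libraries, out of 36346 gene names on 40117 rows, and rows sharing a name were summed. SESN2 was listed on 2 rows with identical values in all 20 libraries, so that its values here are the sum of both rows. All 8 genes were expressed highly enough to be tested in both cell lines. The genes and the companion lists below were chosen with earlier results of these libraries known. SESN2 and DDIT4 also stand on the list of genes the study selected from these same libraries, so that their direction is not independent evidence.

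HT29 and SW480 are human colorectal cancer cell lines. Cells received either siPOLR1D-2 or siPOLR1D-3, which both target POLR1D, or SCR, a negative control siRNA, and RNA was harvested after 72 h. POLR1D encodes a subunit shared by RNA polymerases I and III, and the study asked which genes respond when it is silenced. In HT29 there were 4 SCR libraries and 2 for each siRNA, and in SW480 there were 6 SCR libraries and 3 for each siRNA. No source states whether the replicates were separate cultures, and the p values then measure only the spread between these libraries. The deposited values are read counts normalised within each line, so levels are not compared between lines here.

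Sestrins bind and inhibit GATOR2, which otherwise relieves the block on the amino acid-sensing Rag GTPases, and SESN2 is known to sense leucine. DDIT4, also called REDD1, acts through the TSC complex, in which TSC1 stabilises TSC2, the GTPase-activating protein for RHEB. DEPTOR and AKT1S1, also called PRAS40, bind mTOR complexes directly and inhibit them. SESN2 and DDIT4 are textbook targets of the integrated stress response, SESN1 is a p53 target, and SESN3 is a FOXO target. DDIT4 is also induced by low oxygen.

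The promoters of SESN2 and DDIT4 are shown because both genes varied together in these libraries, and a window of TSC2 because it held the most motif matches. Each line gives the 250 bases before the RefSeq transcription start in GRCh38.p14, 5′ to 3′ on the gene's own strand, with matches to the motifs below in capitals. The windows are chr1:28259268-28259517 on the plus strand for SESN2, chr10:72273674-72273923 on the plus strand for DDIT4, and chr16:2047735-2047984 on the plus strand for TSC2.
SESN2: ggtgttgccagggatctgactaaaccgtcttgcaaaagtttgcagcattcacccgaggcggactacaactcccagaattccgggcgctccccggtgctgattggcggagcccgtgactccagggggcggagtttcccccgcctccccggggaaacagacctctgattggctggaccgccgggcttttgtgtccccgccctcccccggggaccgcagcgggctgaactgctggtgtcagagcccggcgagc
DDIT4: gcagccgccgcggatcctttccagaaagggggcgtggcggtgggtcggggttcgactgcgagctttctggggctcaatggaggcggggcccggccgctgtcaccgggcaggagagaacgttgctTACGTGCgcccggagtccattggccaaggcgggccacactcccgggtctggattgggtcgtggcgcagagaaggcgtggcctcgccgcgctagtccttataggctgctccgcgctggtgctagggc
TSC2: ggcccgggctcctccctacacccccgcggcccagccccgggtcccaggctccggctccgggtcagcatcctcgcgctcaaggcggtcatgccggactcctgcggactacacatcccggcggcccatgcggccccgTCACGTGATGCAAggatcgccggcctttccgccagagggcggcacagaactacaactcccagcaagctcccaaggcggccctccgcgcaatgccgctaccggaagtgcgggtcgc
Both strands were searched for 5 motifs, namely TGATGNAA for the composite site of ATF4 and C/EBP factors, TGACGTCA for the cyclic AMP response element, CACGTG for the E-box, NACGTGN for the hypoxia response core and TATAAA for the TATA box. The SESN2 window held none of these letters. The DDIT4 window held 1 match to NACGTGN starting 126 bases before the start, a motif present in 18.4% of 35116 promoters of the same length. Other forms of the hypoxia response core were not searched. The TSC2 window shown held TGATGCAA starting 110 bases before the start, overlapping an E-box that also matches the hypoxia core. Another RefSeq window of TSC2, chr16:2047952-2048201, held none of the 5 motifs. TGATGNAA was found in 3.14% of all promoters and CACGTG in 6.35%. These are matches of letters, not measured binding sites. RefSeq entries were at hand for 6 of the 8 genes, and the windows of SESN1, SESN3 and TSC1 held none of the 5 motifs.

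POLR1D itself was lower in every silenced library than in every SCR library of its line. In HT29 the SCR libraries had a mean value of 5048 ± 700 (SD, n = 4), against 3078 ± 452 (SD, n = 4) after silencing. In SW480 the means were 2116 ± 281 (SD, n = 6) and 1036 ± 183 (SD, n = 6). The log2 fold change was -0.72 in HT29 (limma, adjusted p = 0.355) and -1.04 in SW480 (limma, adjusted p = 0.000991). Depth was estimated at between 13500000 and 27600000 reads per library. Along the first principal component the SW480 libraries fell on 2 sides. SCR 1 to 3 and siPOLR1D-2 1 and 2 were on the first and the other 7 on the second, so that all 3 siPOLR1D-3 libraries were on the second side. The sides were read from these same libraries, with the members left out, and no label names them. In HT29, SCR 1 stood apart. The epithelial markers were present, with 6 of 8 at a median of at least 10 in HT29, where CDX1 and CDX2 were under it, and 7 of 8 in SW480, where CDX1 was under it.

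SESN2 was the 1 member that passed the threshold over both siRNAs, in SW480. In HT29 its values in the SCR libraries were 492, 376, 91.1 and 202. With siPOLR1D-2 they were 91.1 and 63.1, and with siPOLR1D-3 they were 73.6 and 73.0. The 4 silenced libraries lay below all 4 SCR libraries, a separation found in either direction for 6.89% of all genes. The margin was small, since SCR 3 was at 91.1 like the first siPOLR1D-2 library and SCR 1 and 2 were far above. The fold change was -1.68 on the log2 scale (95% interval -2.70 to -0.67), with an adjusted p of 0.355 in limma and an exact 2-sided permutation p of 0.0286, the smallest that 4 against 4 libraries allow. Without SCR 1, the library that stands apart, the log2 fold change was -1.34.

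In SW480 the 6 SCR libraries ranged in SESN2 from 108 to 712 with a median of 420. The values were 71.7, 193 and 146 with siPOLR1D-2 and 78.6, 57.8 and 67.8 with siPOLR1D-3. All 6 silenced libraries were below the SCR median and 4 of them were below every SCR library. The groups overlapped through SCR 1, which at 108 was lower than 2 of the siPOLR1D-2 libraries. SESN2 fell by 1.93 on the log2 scale (95% interval -2.86 to -0.997, limma adjusted p = 0.0211, exact permutation p = 0.00866). Within the first side of the principal component, with 3 SCR and 2 siPOLR1D-2 libraries, the log2 fold change was -1.51. That fit called 0 of 15110 genes in limma, so no adjusted p is read from it. Within the second side, with 3 SCR, 1 siPOLR1D-2 and 3 siPOLR1D-3 libraries, it was -2.17 (limma, adjusted p = 0.00399), in a fit that called 1939 of 15553 genes. The siRNAs are spread unequally over the sides, so that a contrast of the sides cannot be told apart from one of the siRNAs.

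Per siRNA in SW480, SESN2 fell by 2.37 on the log2 scale with siPOLR1D-3 (limma, adjusted p = 0.018). All 3 of these libraries were below every SCR library, a separation found in either direction for 19.8% of all genes. With siPOLR1D-2 the log2 fold change was -1.48 (limma, adjusted p = 0.090), with 1 of 3 libraries below every SCR library. The difference between the siRNAs was -0.89 on the log2 scale (95% interval -2.15 to 0.37). Both siRNAs are compared with the same SCR libraries.

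DDIT4 was also lower in the silenced libraries. In HT29 the SCR values were 1167, 999, 286 and 405, against 108 and 156 with siPOLR1D-2 and 146 and 173 with siPOLR1D-3. The groups did not overlap (6.89% of all genes separated in either direction), and the lowest SCR library was again SCR 3. The log2 fold change was -2.07 (95% interval -3.01 to -1.13, limma adjusted p = 0.355, exact permutation p = 0.0286). It was -1.76 without SCR 1.

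In SW480 the SCR values of DDIT4 ran from 208 to 1289 with a median of 761. With siPOLR1D-2 they were 213, 678 and 203, and with siPOLR1D-3 they were 139, 140 and 99.3. SCR 1 was low at 208 and siPOLR1D-2 replicate 2 was high at 678, and through these 2 libraries the groups overlapped. The pooled log2 fold change was -1.73 (95% interval -2.80 to -0.67) and did not pass the threshold (limma, adjusted p = 0.0518; exact permutation p = 0.0195). Left out, SCR 1 or siPOLR1D-2 replicate 2 each brought the adjusted p under 0.05, with log2 fold changes of -2.06 and -2.09 (limma). Within the first side, which holds siPOLR1D-2 alone, the log2 fold change was -0.85, and within the second, where 3 of the 4 silenced libraries had siPOLR1D-3, it was -2.14 (limma, adjusted p = 0.00221).

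DDIT4 fell by 2.38 on the log2 scale with siPOLR1D-3 (limma, adjusted p = 0.0243). With siPOLR1D-2 the log2 fold change was -1.08 (limma, adjusted p = 0.240). The difference between the siRNAs, at -1.30 on the log2 scale, had an interval from -2.66 to 0.06.

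**Figure D1:**
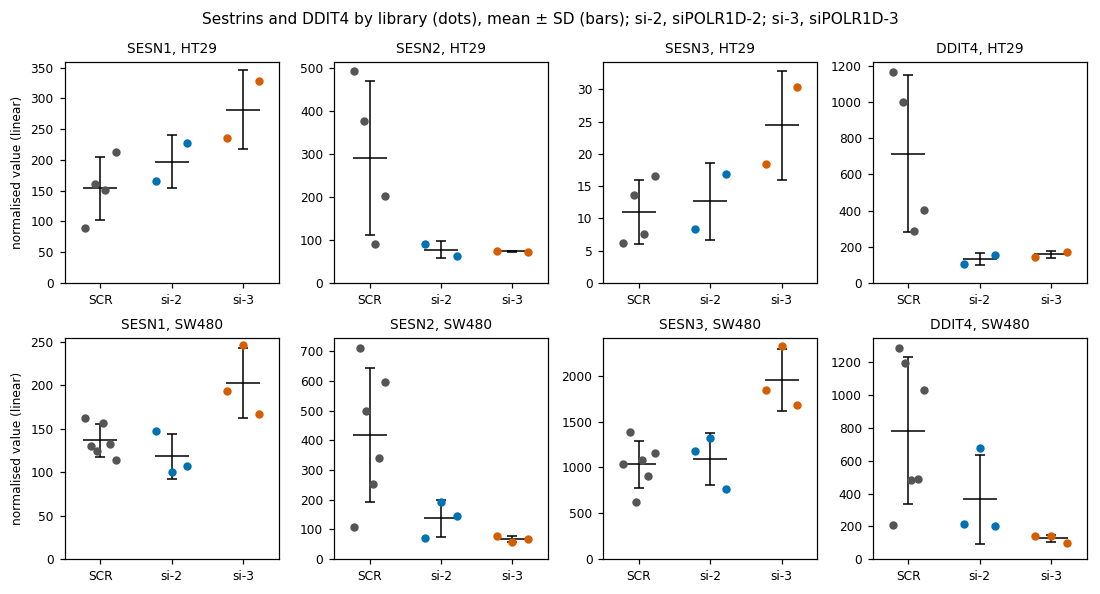
Normalised values of SESN1, SESN2, SESN3 and DDIT4 (vertical axes, linear, from 0) in each library of HT29 (top) and SW480 (bottom), with the mean and SD of each group as bars. SESN2 and DDIT4 were low in the silenced libraries and spread widely among the SCR libraries, while SESN3 in SW480 was highest in the 3 siPOLR1D-3 libraries at 1677 to 2327.

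Low SESN2 went with low DDIT4 among the SCR libraries themselves. Over the 6 SW480 SCR libraries the log2 values had a Pearson r of 0.971 (exact permutation p = 0.00694) and a Spearman rho of 0.943 (exact permutation p = 0.0167), with both p values unadjusted. Without SCR 1 and 2, the 2 libraries farthest from the median of SESN2, r was 0.899 over 4 libraries. Thus the 2 genes varied together where POLR1D had not been silenced. The pair was chosen with results of these libraries known, so that both p values are descriptions and not independent evidence. Over the same 6 libraries r was also 0.888 for DEPTOR with TSC2 and -0.868 for SESN1 with SESN2. Whether the pair is closer than other pairs of genes was not tested.

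**Figure D2:**
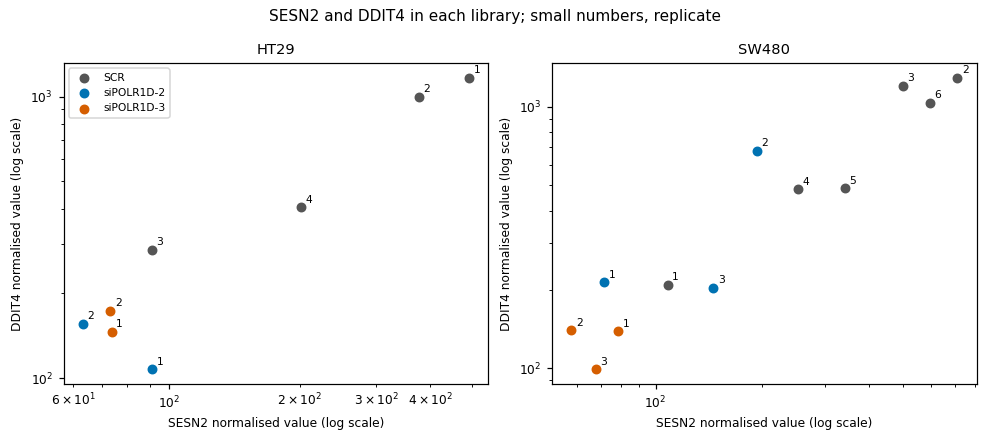
SESN2 (horizontal, log scale) against DDIT4 (vertical, log scale), normalised values, 1 point per library with its replicate number, HT29 left and SW480 right. Higher SESN2 mostly went with higher DDIT4 in each line, but not among the HT29 silenced libraries. There siPOLR1D-2 replicate 1 was highest in SESN2 (91.1) and lowest in DDIT4 (108). SW480 SCR 1, at 108 and 208, lies among the silenced libraries.

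SESN1 and SESN3 did not share the decrease of SESN2. SESN1 in HT29 was at 89.7, 160, 151 and 214 in SCR, at 167 and 227 with siPOLR1D-2 and at 236 and 328 with siPOLR1D-3. Only SCR 4, at 214, reached the silenced range, and 3 of 4 silenced libraries were above every SCR library. The log2 fold change of 0.66 had an adjusted p of 0.454 in limma (exact permutation p = 0.0571).

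In SW480 SESN1 ran from 114 to 162 in SCR, with a median of 132. It was at 147, 100 and 107 with siPOLR1D-2 and at 194, 247 and 167 with siPOLR1D-3. The siRNAs thus lay apart, siPOLR1D-3 above every SCR library (19.8% of all genes separated in either direction) and siPOLR1D-2 mostly below. The log2 fold change was -0.22 with siPOLR1D-2 (limma, adjusted p = 0.536) and 0.56 with siPOLR1D-3 (limma, adjusted p = 0.101). Their difference of 0.77 (95% interval 0.29 to 1.26) did not pass the threshold (limma, adjusted p = 0.0746).

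SESN3 in HT29 was near the value of 10 required for testing, at 6.18 to 16.6 in SCR and 8.41 to 30.4 in silenced libraries, where its log2 fold change was 0.67 (limma, adjusted p = 0.587). In SW480 the SCR libraries ran from 626 to 1389 with a median of 1060. The values were 1180, 1324 and 769 with siPOLR1D-2 and 1850, 2327 and 1677 with siPOLR1D-3. All 3 siPOLR1D-3 libraries were above every SCR library (19.8% of all genes separated in either direction), whereas the siPOLR1D-2 libraries lay inside the SCR range. SESN3 rose by 0.94 on the log2 scale with siPOLR1D-3 (95% interval 0.44 to 1.44, limma adjusted p = 0.0319). With siPOLR1D-2 the log2 fold change was 0.08 (limma, adjusted p = 0.866), and over both siRNAs it was 0.51 (limma, adjusted p = 0.233). The difference between the siRNAs was 0.86 (95% interval 0.28 to 1.44, limma adjusted p = 0.0917). All 3 siPOLR1D-3 libraries were on the second side of the principal component. Against the SCR libraries of that side alone, at 910 to 1159, the log2 fold change was 0.89 (limma, adjusted p = 0.00131). This comparison was chosen after seeing the data, and its fit called 3158 of 15553 genes.

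TSC1 in HT29 ran from 966 to 1459 in SCR and from 1029 to 1128 in silenced libraries, inside the SCR range. In SW480 it ran from 1297 to 1786 in SCR with a median of 1511, and was at 1107, 1290 and 903 with siPOLR1D-2 and at 1398, 1453 and 1337 with siPOLR1D-3. The siPOLR1D-2 libraries were below every SCR library, the highest of them by a small margin (12.7% of all genes separated in either direction). The siPOLR1D-3 libraries were inside the SCR range. TSC1 fell by 0.46 on the log2 scale with siPOLR1D-2 (95% interval -0.75 to -0.18, limma adjusted p = 0.0453). This adjusted p was above 0.05 when any 1 of 10 of the 12 libraries was left out, the exceptions being SCR 1 and siPOLR1D-2 replicate 2. Pooled over the siRNAs the log2 fold change was -0.29 in SW480 (limma, adjusted p = 0.193) and -0.15 in HT29 (limma, adjusted p = 0.662).

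TSC2, the catalytic partner, ran from 2298 to 3201 in the HT29 SCR libraries and from 2045 to 2957 in the silenced ones. In SW480 it ran from 1801 to 2767 in SCR and from 1591 to 2770 in silenced libraries. The log2 fold change was -0.08 in HT29 (95% interval -0.42 to 0.26) and -0.0087 in SW480 (95% interval -0.34 to 0.33). In SW480 the sign turned under upper quartile and quantile scaling, with log2 fold changes of 0.062 and 0.051. In SW480 the difference between siPOLR1D-3 and siPOLR1D-2 was 0.48 (95% interval 0.09 to 0.87, limma adjusted p = 0.151).

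DEPTOR was low in both lines. In HT29 it was at 101, 93.1, 18.3 and 63.8 in SCR and from 27.2 to 77.8 in silenced libraries, with a log2 fold change of -0.49 (limma, adjusted p = 0.734). In SW480 the SCR libraries ran from 17.7 to 84.5 with a median of 48.5, and the silenced libraries from 21.5 to 46.0. All 6 silenced libraries were below the SCR median, but SCR 1 was the lowest library of all. The log2 fold change was -0.53 (limma, adjusted p = 0.392) over both siRNAs, and -0.89 with siPOLR1D-3 (95% interval -1.76 to -0.02, limma adjusted p = 0.194).

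AKT1S1 was the only member with higher values in every silenced SW480 library than the SCR median. In SW480 SCR 1 to 6 it was at 147, 144, 123, 92.9, 86.5 and 81.3. It was at 244, 194 and 232 with siPOLR1D-2 and at 130, 126 and 144 with siPOLR1D-3. The siPOLR1D-2 libraries were above every SCR library (12.7% of all genes separated in either direction). The siPOLR1D-3 libraries were level with SCR 1 to 3 and above SCR 4 to 6. AKT1S1 rose by 1.02 on the log2 scale with siPOLR1D-2 (95% interval 0.55 to 1.497, limma adjusted p = 0.0151). With siPOLR1D-3 the log2 fold change was 0.28 (limma, adjusted p = 0.438), and over both siRNAs it was 0.65 (limma, adjusted p = 0.09997). Without siPOLR1D-2 replicate 1 or replicate 3 the call with that siRNA was lost.

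The SCR libraries of AKT1S1 split by the sides of the principal component, at 123 to 147 on the first and 81.3 to 92.9 on the second. On the first side the 2 siPOLR1D-2 libraries were above all 3 SCR libraries. On the second side the 4 silenced libraries were above all 3. The share of all genes separated within a side was not computed, so that these separations are descriptions only. Within the second side the log2 fold change was 0.61 with siPOLR1D-3 (limma, adjusted p = 0.0267). That comparison was chosen after seeing the data, and its fit called 3158 of 15553 genes. The single siPOLR1D-2 library of the second side, at 232, has no replicate there. Within the first side the log2 fold change was 0.66 with siPOLR1D-2. In HT29 AKT1S1 was at 281 in SCR 1 and between 223 and 228 in SCR 2 to 4, and the silenced libraries ran from 211 to 298, with a log2 fold change of 0.012 (limma, adjusted p = 0.982).

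**Figure D3:**
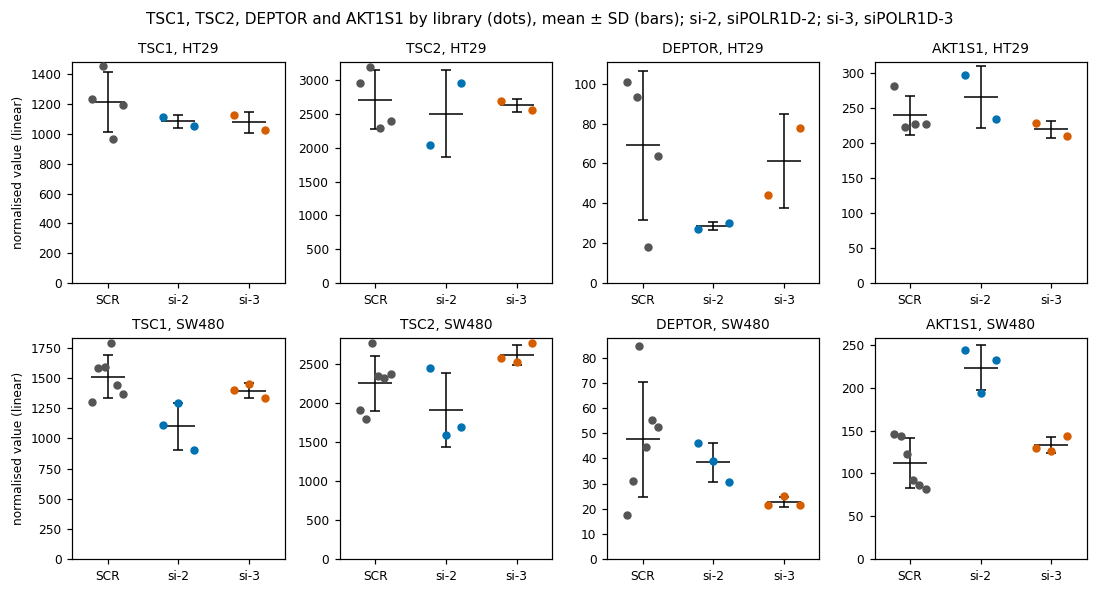
Normalised values of TSC1, TSC2, DEPTOR and AKT1S1 (vertical axes, linear, from 0) in each library of HT29 (top) and SW480 (bottom), with the mean and SD of each group as bars. In SW480 the siPOLR1D-2 libraries lie lowest for TSC1 at 903 to 1290 and highest for AKT1S1 at 194 to 244.

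Over both siRNAs, 0 of 8 members passed the threshold in HT29, where limma called 0 of 13274 genes (0%) and 1422 had an unadjusted p under 0.05. In SW480, 1 of 8 passed, SESN2, against 6.73% of the 15019 genes tested. With siPOLR1D-2 in SW480, 2 of 8 passed (TSC1 lower, AKT1S1 higher), against 8.16% of all genes. With siPOLR1D-3 in SW480, 3 of 8 passed (SESN2 and DDIT4 lower, SESN3 higher), against 6.6%. Without any 1 of the 3 siPOLR1D-3 libraries none of these 3 calls remained, and limma then called between 119 and 238 genes. For each siRNA in HT29 limma called 0 members and 0 genes (0%), with 579 genes at an unadjusted p under 0.05 for siPOLR1D-2 and 1031 for siPOLR1D-3. The silenced and SCR libraries did not overlap for 2 of 8 members in HT29, against 6.89% of all genes, and for 0 of 8 in SW480, against 4.57%. For a single siRNA in SW480 that share over all genes was 12.7% with siPOLR1D-2 and 19.8% with siPOLR1D-3.

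No member passed the test of a difference between the siRNAs. In SW480 that test called 3.32% of all genes, and in HT29 it called 0% with 207 genes at an unadjusted p under 0.05. Nor did any member pass the test of a difference between the lines, which called 5 of 12724 genes (0.0393%). The response of SW480 minus that of HT29 was -0.24 for SESN2 (95% interval -1.67 to 1.18) and 0.34 for DDIT4 (95% interval -1.21 to 1.88). For AKT1S1 it was 0.64 (95% interval 0.0014 to 1.28, limma adjusted p = 0.582). These intervals are wide, and a difference of more than 1 on the log2 scale lies within each of them.

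**Figure D4:**
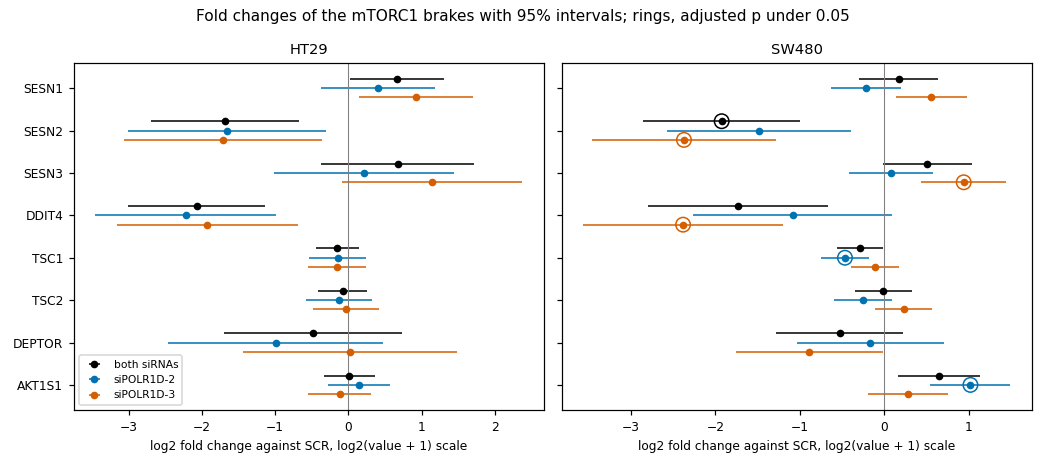
Log2 fold changes against SCR (horizontal) of the 8 members in HT29 (left) and SW480 (right) for both siRNAs together, siPOLR1D-2 and siPOLR1D-3, with 95% intervals as lines and a ring where the limma adjusted p was under 0.05. SESN2 and DDIT4 lie left of 0 in all 6 comparisons each, from -1.08 to -2.38, and rings appear only in SW480.

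Genes outside the members were ranked by how closely they followed each member over the 20 libraries, as the Pearson r of log2 values centred on the mean of the line. These r values are descriptions, since all genes share the libraries and their silencing. SESN2 was most like CTH, which makes cysteine (r = 0.955), followed by RNF41 (0.952), CEBPG (0.942), PPP1R15A (0.941), which encodes the phosphatase subunit GADD34, and XBP1 (0.935), a transcription factor of the unfolded protein response. DDIT4 was most like SLC38A2, an amino acid transporter (r = 0.945), followed by XBP1 (0.938), DDIT3 (0.929), which encodes CHOP, CEBPG (0.927) and BRAF (0.923). CEBPG and XBP1 stood among the 5 nearest genes of both. In SW480 the log2 fold changes of these 8 genes ran from -0.30 for BRAF to -1.94 for PPP1R15A, a direction that their choice by likeness over the same libraries largely fixes.

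The other members had different neighbours. SESN1 was most like FDXR (r = 0.858), a p53 target that encodes ferredoxin reductase, AC019097.1 (0.855) and LBR (0.853), the lamin B receptor. SESN3 was most like AC019097.1 (r = 0.862), DTNB (0.829) and MYOM3 (0.825). DEPTOR was most like TCP11L2 (r = 0.859), TRMT13 (0.839) and AC135721.1 (0.831). TSC1 followed TRAPPC11 (r = 0.882), ITGB6 (0.850) and PUS10 (0.828), and TSC2 followed PLEKHG1 (0.822), CHMP3 (0.771) and C19orf33 (0.752). AKT1S1 was most like CDC37, an HSP90 co-chaperone (r = 0.916), PPP1R14B (0.914) and DNAJB1, an HSP40 chaperone (0.897).

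The companion lists place the members among the pathways that are known to regulate them. Of 18 integrated stress response genes, 18 were tested in SW480 and 13 were lower and 0 higher at the threshold, with a median log2 fold change of -1.20 against 0.01 over all genes, of which 6.73% passed in either direction. Per siRNA, 5 of 18 were lower with siPOLR1D-2 (median -0.93) and 14 of 18 with siPOLR1D-3 (median -1.54), against the same SCR libraries. The 4 with the smallest p were ASNS, asparagine synthetase (-1.79, limma adjusted p = 0.00166), PPP1R15A (-1.94, limma adjusted p = 0.00275), PHGDH, the first enzyme of serine synthesis (-1.22, limma adjusted p = 0.00564), and ATF4, the transcription factor of the response (-0.81, limma adjusted p = 0.00649). In HT29, 16 of the 18 were tested and 0 passed, with a median of -1.31 against 0.00019 over all genes, and 14 of 16 were lower at an unadjusted p under 0.05 in limma, which 1422 of all 13274 genes reached in either direction. Some of these genes also stand on the study's own list.

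Among the inputs to mTORC1 in SW480, 2 of 27 amino acid-sensing genes passed, a share near the 6.73% of all genes. Both were higher, LAMTOR2 (0.67, limma adjusted p = 0.00526) and LAMTOR1 (0.78, limma adjusted p = 0.0137), subunits of the Ragulator complex that anchors the Rag GTPases to the lysosome. Of 18 growth factor and energy genes, 4 passed, against the same 6.73%, and all were lower. They were the AMPK subunits PRKAB2 (-1.38), PRKAG2 (-0.60) and PRKAG1 (-0.47), and PIK3CA (-0.45), the catalytic subunit of PI3-kinase (limma, adjusted p from 0.0175 to 0.0410). Of 4 mTORC1 core genes and 4 mTORC2 subunits, 0 passed in limma in either line, with 1 core gene in each line and 1 mTORC2 gene in HT29 at an unadjusted p under 0.05. Among 16 genes acting downstream of mTORC1, 1 passed, again near the 6.73% of all genes, namely GRB10, an adaptor that mTORC1 phosphorylates (-1.49, limma adjusted p = 0.0110).

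The other lists hold programmes known to include DDIT4, SESN1 or SESN3. Of 12 hypoxia-inducible genes, 3 were lower in SW480, VEGFA (-1.05), BNIP3L (-0.72) and PDK1 (-0.43), with a median over the list of 0.11. These counts, and those of the next lists, stand beside 6.73% of all genes. Of 13 p53 targets tested, 2 were lower, MDM2 (-0.46) and GDF15 (-1.59), which is also induced by the integrated stress response, with a median of -0.0077. VEGFA and GDF15 also stand on the study's own list, so that their direction is not independent evidence. Of 12 FOXO targets tested, BCL2L11 was higher (0.96) and CDKN1B lower (-0.58), with a median of 0.17. In HT29 limma called 0 genes of any of these lists, with 2 of 12, 3 of 13 and 7 of 11 at an unadjusted p under 0.05, against 1422 of 13274 over all genes. By direction, 0 hypoxia-inducible genes were higher and 2 lower, 1 p53 target higher and 2 lower, and 3 FOXO targets higher and 4 lower.

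**Figure D5:**
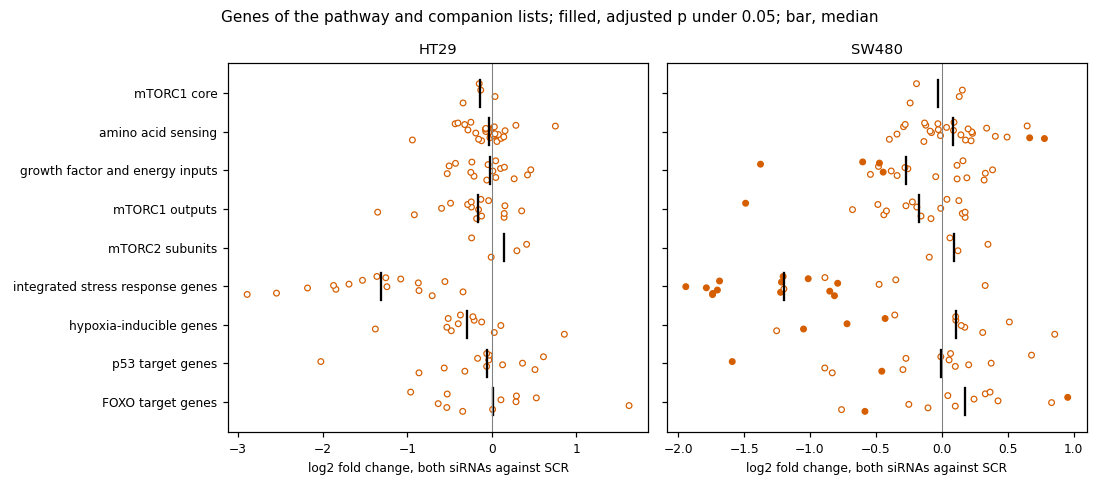
Log2 fold changes over both siRNAs (horizontal) of the genes of 9 lists in HT29 (left) and SW480 (right), 1 point per gene, filled where the limma adjusted p was under 0.05, with the median of each list as a bar. The integrated stress response genes have medians of -1.31 and -1.20, and 13 of 18 are filled in SW480.

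These are bulk libraries, in which fewer cells expressing a gene and less RNA per cell cannot be told apart. Annotated genes overlap several members, among them DDIT4-AS1 opposite DDIT4 and PKD1 opposite TSC2, and how the counting treated strand is not given in the sources used here.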

How the data were processed

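RNA from HT29 and SW480 was captured for coding transcripts and sequenced as paired-end reads. The authors quantified the reads with kallisto (0.44.0), summarised them per gene and normalised them with DESeq2 (1.24.0) within each cell line, per the labels and methods with hg38 as build. The index, annotation and strand handling are not given in the sources used here. The authors deposited these values as signal, that is normalised read counts that are not whole numbers, so that no count test was run. Here the values of rows sharing a name were summed and log2(value + 1) was tested with limma (3.58.1, R 4.3.3), with an empirical Bayes trend, on genes that reached 10 in as many libraries as the smaller arm holds. Fold changes are on that scale, which understates changes of low genes. Adjusted p values are Benjamini-Hochberg over all genes tested, with a threshold of 0.05, 2-sided. Both siRNAs were pooled against SCR, and a fit of 3 groups gave each siRNA and their difference. Exact permutation tests over libraries were run for each member, and their p values were not adjusted. The difference between lines was fitted over all 20 libraries.

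The members and the lists were chosen with earlier results of these data known. The genes named besides the members are POLR1D, the genes most like each member (5 for SESN2 and DDIT4, 3 for the others) and, in each list, the genes called in a line, up to the 4 with the smallest p. In each line most markers of other cell types had a median under 10. In HT29, 1 of 4 blood and 1 of 7 fibroblast and endothelial markers reached a median of 10, and in SW480 0 of 4 and 3 of 7 did. The summed level of the 7 in SW480 was 130 to 1266 in SCR and 134 to 1123 in silenced libraries, and its part in the results was not tested. No pair of replicates was a copy of another. Alternatives covered the pseudocount (0.1 and 5), the filter, the scaling, the trend, library weights, a replicate block, a joint fit, the sides of the first principal component and each library left out in turn.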

Additional observations from a re-analysis of the deposited data

Results flagged for a closer look

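In 2 of 32 groups of libraries 1 member had a library far from the rest of its group, and chance alone gives about 1 in 20. AKT1S1 in HT29 SCR 1 was at 281.4, above the other 3 SCR libraries, and SCR 1 is also the HT29 library that stands apart along the first principal component. DDIT4 in SW480 siPOLR1D-2 replicate 2 was at 678.0, above the other 5 silenced libraries.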

How the results depend on the processing

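SESN2 in SW480 kept its direction in every alternative and its call without each of the 12 libraries in turn, and DDIT4 kept its direction throughout while its pooled call depended on the setting. In SW480 the pooled fit called 1 member, among 1011 genes. It called 2 with a minimum value of 50 (1062 genes) or quantile normalization (1109 genes). With both lines in 1 fit (1253 genes) or the side of the principal component as a covariate (1993 genes) it called 3. With array weights it called 5, among 3057 of 15019 genes. On the first side alone it called 0 members and 0 of 15110 genes. The second side alone gave 4, among 1939 of 15553 genes. With a library left out 1 to 2 members were called, among 534 to 1283 genes. For siPOLR1D-2 in SW480 the count of 2 became 1 with no filter, upper quartile or quantile normalization, no trend or only the compared groups (582 to 1394 genes called). With a library left out it was 0 to 3 (446 to 1806 genes called). On the first and second side alone, fits chosen after seeing the data, it was 0 and 5. The first of these fits called 0 of 15110 genes and the second rests on 1 siPOLR1D-2 library, so that neither count is informative. For siPOLR1D-3 in SW480 the count of 3 became 6 with array weights, among 3782 of 15019 genes. It was 5 on the second side alone, a fit also chosen after seeing the data, among 3158 of 15553 genes. With a library left out it was 0 to 4, among 119 to 1353 genes. Between the siRNAs in SW480 0 members became 6 with array weights, among 4637 of 15019 genes, and 1 with only the compared groups, among 1215. With a library left out it was 0 to 1, among 39 to 777 genes. In HT29, and between the lines, no member was called when any 1 library was left out. The cause of these changes was not tested.

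The labels do not say whether the replicate numbers pair the libraries. The mean correlation of same-numbered libraries was -0.037 in HT29 (6 pairs) and -0.015 in SW480 (9 pairs, from -0.60 to 0.39). So few pairs cannot decide it. With a replicate block, HT29 SCR 3 and 4 have no partner, so that the contrast rests on SCR 1 and 2. These were the highest SCR libraries for SESN2 (492 and 376) and for DDIT4 (1167 and 999). In SW480, SCR 4 to 6 have no partner. With this block limma called SESN2 and DDIT4 in HT29 (2 members, 735 genes), 1 for siPOLR1D-2 and 2 for siPOLR1D-3. It called 0 members in SW480, pooled or with siPOLR1D-2. Under the block the sign turned for AKT1S1 in HT29 (-0.057), TSC2 in SW480 (0.066), DEPTOR with siPOLR1D-2 (0.069), AKT1S1 with siPOLR1D-3 (-0.043) and SESN2 between lines (0.66).

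Other log2 fold changes that turned sign were all short of the threshold. With array weights they were DEPTOR (0.0075) and TSC2 (0.074) in HT29, TSC2 in SW480 (0.11) and DDIT4 between lines (-0.71). TSC2 in SW480 also turned with upper quartile (0.062) and quantile (0.051) normalization and on the second side (0.00040), as did TSC1 with siPOLR1D-3 under upper quartile (0.0026). Pooled on the first side, which holds siPOLR1D-2 alone, SESN1 was at -0.18 and DEPTOR at 0.22. The same fit gives the values with siPOLR1D-2, for which only DEPTOR turned. On the second side SESN3 with siPOLR1D-2 was at -0.44. With a library left out, TSC2 ranged from -0.16 to 0.025 in HT29 and from -0.073 to 0.087 in SW480, AKT1S1 in HT29 from -0.090 to 0.091, SESN3 and DEPTOR with siPOLR1D-2 from -0.076 to 0.31 and from -0.41 to 0.026, and SESN2 and DDIT4 between lines from -0.58 to 0.22 and from -0.019 to 0.70.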
